A study of Zea mays with 12 samples.

Results

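Ribosome occupancy was compared between roots of B73 maize seedlings treated with tunicamycin (TM) for 6 hr and roots taken at 0 hr, using the 4 ribo-seq libraries of these time points out of 12 libraries in the series. Of the 39498 genes in the count table, all 20414 that passed a filter on low counts in the ribo-seq libraries (edgeR's filterByExpr with default settings) were tested. Both groups were wild-type roots of the inbred line B73, given TM at 5 µg/ml, dissolved in DMSO, for 6 or 0 hr, with 2 biological replicates each. Each lysate gave 1 ribo-seq library, which holds ribosome-protected fragments (RPFs), and 1 RNAseq library from the same lysate, and 12 hr libraries made in the same way entered the estimate of the spread. Mock-treated roots were not analysed here, so TM and time in culture cannot be told apart. The labels give a seedling age of 7 days for all libraries, which is younger than the age in the methods. A root holds many cell types, and a change in RPFs per cell cannot be told apart from a change in the mix of cells.

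TM blocks N-glycosylation, so that proteins misfold in the endoplasmic reticulum (ER) and the unfolded protein response (UPR) is set off. The UPR raises the transcripts of chaperones that hold or refold nascent proteins in the ER and of the machinery that withdraws misfolded ones for degradation. In ribosome profiling, fragments of mRNA that translating ribosomes shield from RNase are sequenced, so that the number of RPFs of a gene reflects both how much of its mRNA is present and how densely ribosomes occupy it.

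By 6 hr of treatment, edgeR's test on duplicate libraries called few genes as different from 0 hr in RPF level. Those called higher included ER chaperones of the UPR. A gene without a call is not thereby shown to be unchanged. BIP2 and ERDJ3a rose under every scaling tried, PDI-2 rose when libraries were scaled by TMM or by total counts, and Derlin 1 missed the threshold under these scalings. With libraries scaled to equal actin counts, the scaling that the study's methods state, 13 genes were called higher, 0.0637% of the genes tested, and 42 were called lower, 0.206%. With TMM scaling, which uses the bulk of the genes in place of a single one, 15 genes were called higher (0.0735%) and 0 were called lower (0%), and total counts gave 14 and 0. All calls are at an adjusted p under 0.05 (edgeR's quasi-likelihood test, Benjamini-Hochberg over all tested genes), and all 55 calls with actin and all 15 with TMM scaling were more than 2-fold. At an unadjusted p under 0.05 there were 107 higher and 634 lower genes with actin scaling, and 353 higher and 431 lower with TMM scaling. These counts are out of 20414 tested genes, some of which meet this threshold without any change, so they are not read as changes.

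BIP2 (Zm00001d014993), an ER-resident HSP70 chaperone that binds unfolded proteins, had 2000 and 3384 RPF counts at 0 hr against 5300 and 19959 at 6 hr. As CPM, the counts scaled to the total of their library, this was 611 and 580 at 0 hr against 3179 and 2658 at 6 hr. Both 6 hr libraries thus lay far above both 0 hr libraries, despite the shallow first 6 hr library. The log2 RPF change was 1.98 with actin scaling (SE 0.41, n = 2 libraries per time point, edgeR adjusted p = 0.0013), a 3.94-fold rise, and 2.30 with TMM scaling (SE 0.23, edgeR adjusted p = 0.0018), a 4.91-fold rise. The RPF change lost its call with actin scaling without either 6 hr library (edgeR adjusted p = 0.465 without replicate 1 and 0.222 without replicate 2) and when the 12 hr libraries were left out (0.1), with a log2 change of 1.90 to 2.05 in these fits. A further called gene, which has no name in the tables used here, had 0.835 to 0.942 times the RPF counts of BIP2 in each of the ribo-seq libraries. Reads that fit several genes equally well were kept once by the authors, so near-identical copies may share counts and these are uncertain as separate genes.

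ERDJ3a (Zm00001d047726), an ER J-domain protein of the kind that stimulates the ATPase of BIP, had 181 and 301 RPF counts at 0 hr against 749 and 3945 at 6 hr. These were 55.3 and 51.6 CPM at 0 hr against 449 and 525 at 6 hr, so that each pair of duplicates lay close together and the time points lay far apart. Its log2 RPF change of 2.89 with actin scaling (SE 0.47, edgeR adjusted p = 1.9e-06) and of 3.20 with TMM scaling (SE 0.23, edgeR adjusted p = 0.0001) exceeded that of BIP2 as a point estimate. The difference between their changes was not tested.

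PDI-2 (Zm00001d005866), a protein disulfide isomerase that forms and reshuffles disulfide bonds of proteins in the ER, had 211 and 439 RPF counts at 0 hr against 356 and 1656 at 6 hr. Its level was 64.5 and 75.3 CPM at 0 hr against 214 and 221 at 6 hr, without overlap. The log2 change was 1.63 with TMM scaling (SE 0.23, edgeR adjusted p = 0.0271). With actin scaling the estimate was 1.37 with an SE of 0.46, and the edgeR adjusted p was 0.346. With TMM scaling PDI-2 also lost its call when 1 library was left out, with an edgeR adjusted p of 0.192 when this was 0 hr replicate 1, and of 0.122 and 0.165 when it was 6 hr replicate 1 or 2.

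Derlin 1 (Zm00001d010368), a membrane protein of ER-associated degradation, through which misfolded proteins leave the ER, had 298 and 813 RPF counts at 0 hr against 436 and 2535 at 6 hr. Its level was 91.1 and 139 CPM at 0 hr against 262 and 338 at 6 hr. The time points did not overlap, but the 0 hr duplicates differed more from each other than those of BIP2 or ERDJ3a. Its log2 change of 1.38 with TMM scaling (SE 0.27, edgeR adjusted p = 0.139) and of 1.17 with actin scaling (SE 0.45, edgeR adjusted p = 0.726) did not pass the test. DESeq2 with its own size factors called Derlin 1 (adjusted p = 0.000816) as well as PDI-2. Of these 4 UPR genes, 2 were called higher in RPFs with actin scaling and 3 with TMM scaling, and their median log2 change was 1.68 and 1.97, beside medians of -0.29 and -0.01 over all tested genes. They were picked because the study gives their identifiers and drew on the same libraries, so their direction is not independent evidence.

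The reference genes did not pass the test. Alpha tubulin 3 (Zm00001d013367), a cytoskeletal protein, had 417 and 433 RPF CPM at 0 hr against 645 and 450 at 6 hr, so that its first 6 hr library stood above the other 3 libraries. Its log2 change was 0.06 with actin scaling (SE 0.43) and 0.36 with TMM scaling (SE 0.28). PAB2 (Zm00001d005276), a poly(A)-binding protein that sits on mRNA tails and marks stress granules, had 219 and 176 CPM at 0 hr against 218 and 196 at 6 hr, so the groups overlapped. Its estimate was -0.28 with actin scaling (SE 0.45) and 0.07 with TMM scaling (SE 0.21), and the sign turned with the scaling.

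The 6 hr levels of the UPR genes overlapped those of the 12 hr libraries, which share the 0 hr controls. At 12 hr, BIP2 had 3538 and 2484 RPF CPM, ERDJ3a 540 and 461, PDI-2 240 and 185, and Derlin 1 356 and 279. For BIP2 and PDI-2 both 6 hr libraries lay between the 12 hr duplicates. The change from 6 to 12 hr was not tested.

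**Figure D1:**
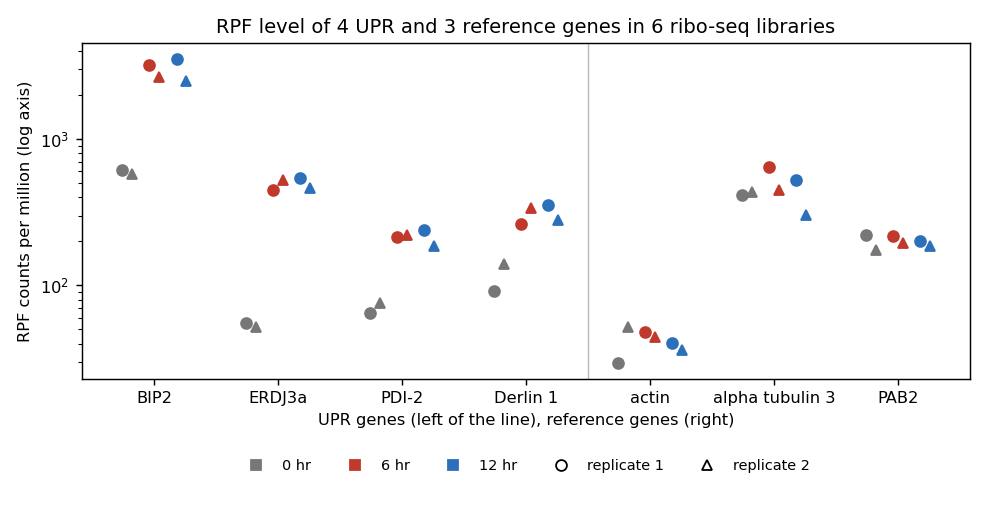
RPF CPM of library total (log axis) of 4 UPR genes and 3 reference genes in each ribo-seq library, by time point (colour) and replicate (marker shape). The 6 hr libraries of BIP2, at 3179 and 2658, and of the other UPR genes lie above the 0 hr libraries and beside the 12 hr ones, whereas actin at 0 hr spans 29.3 to 52.3.

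The 6 hr duplicates were sequenced to unequal depth. Replicate 1 had 1667094 RPF counts and replicate 2 had 7507952, a 4.50-fold difference, whereas the 0 hr libraries had 3272099 and 5832061. A tested gene had a median of 25 counts in 6 hr replicate 1 and 112 in replicate 2, beside 52 and 87 at 0 hr. Of the tested genes, 5386 had under 10 counts in 6 hr replicate 1 and 547 had so few in replicate 2. The table listed 24887 genes with at least 1 count in replicate 1 and 28650 in replicate 2. When replicate 2 was thinned at random to the total of replicate 1, it had 25107 such genes, so that at equal totals the duplicates detected similar numbers of genes. Genes with 100 or more counts numbered 3761 in replicate 1, 10837 in replicate 2 and 3953 in replicate 2 after thinning.

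Despite the unequal depth, the 6 hr duplicates were about as alike as the 0 hr duplicates. Among genes with a mean of 100 to 1000 counts, the SD over genes of the log2 difference in CPM (plus 0.5) between duplicates was 0.445 at 6 hr and 0.476 at 0 hr, and 3.22% and 3.66% of these genes differed more than 2-fold. Among genes with a mean of 10 to 100 counts, the SD was 0.816 at 6 hr and 0.786 at 0 hr, and 0.667 at 6 hr after thinning. Across the genes averaging 100 counts or more, the correlation of log2 levels between duplicates was 0.940 at 6 hr (8361 genes) and 0.926 at 0 hr (8366 genes), where genes are not independent replicates. The duplicates differed by more than counting noise at both time points (chi-square over degrees of freedom 6.49 at 6 hr and 12.0 at 0 hr), and were kept as separate samples as the labels give them. Thinning left 13 genes higher and 48 lower with actin scaling, and, as an alternative chosen after seeing the data, 14 higher and 0 lower with TMM scaling.

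**Figure D2:**
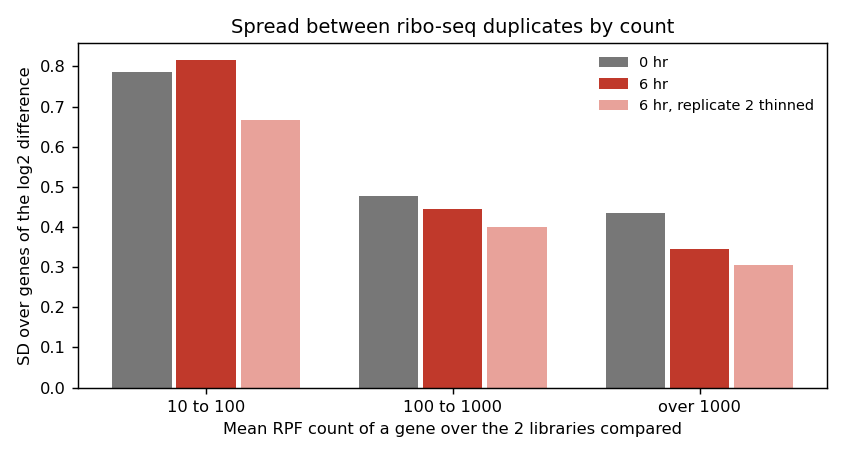
SD over genes of the log2 difference between ribo-seq duplicates, in CPM plus 0.5, for genes grouped by their mean RPF count. Bars show 0 hr (0.476 at 100 to 1000 counts), 6 hr (0.445) and 6 hr with replicate 2 thinned to the total of replicate 1 (0.401), and the spread falls with the count in each.

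The median RPF change depended on the scaling. Actin (Zm00001d013873), the single gene by which libraries were scaled, had 96 and 305 RPF counts at 0 hr against 80 and 336 at 6 hr. These were 29.3 (95% exact binomial interval 23.8 to 35.8) and 52.3 (46.6 to 58.5) CPM at 0 hr, and 48.0 (38.1 to 59.7) and 44.8 (40.1 to 49.8) at 6 hr. The deep and the shallow 6 hr library therefore agree in actin within counting error, whereas the 0 hr duplicates differed 1.78-fold. Intervals here cover counting error only and leave out the spread between root samples. The methods name no step that takes out PCR duplicates, so the intervals may be too narrow even for counting error. Alpha tubulin 3 showed the opposite: the 0 hr duplicates differed 1.04-fold and the 6 hr duplicates 1.43-fold. TMM library sizes were 0.989 to 1.02 times the library totals in these 4 libraries, so that TMM and total counts were nearly the same scaling.

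With actin scaling, the median log2 RPF change over the 20414 tested genes was -0.29, and 78.0% of genes had a change below 0. With TMM scaling the median was -0.01 and 51.8% of genes lay below 0. The median was -0.02 with total counts and -0.32 with alpha tubulin 3 scaling. TMM scaling sets the bulk of genes near 0, so its medians cannot show a shift of all genes. Taken by replicate number, the median change with actin scaling was -0.74 in replicate 1 and 0.23 in replicate 2, whereas with TMM scaling it was -0.03 and 0.00. The shift of -0.29 is thus smaller than the SD of 0.685 between the actin-scaled medians of the replicates. Libraries of the time points share only a replicate number, so another pairing could give another SD. Without 0 hr replicate 1 the median with actin scaling was 0.20. Genes with both 6 hr libraries above both 0 hr libraries made up 4.67% of the tested genes with actin scaling and 14.3% with TMM scaling, and genes with both below made up 14.5% and 15.6%.

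**Figure D3:**
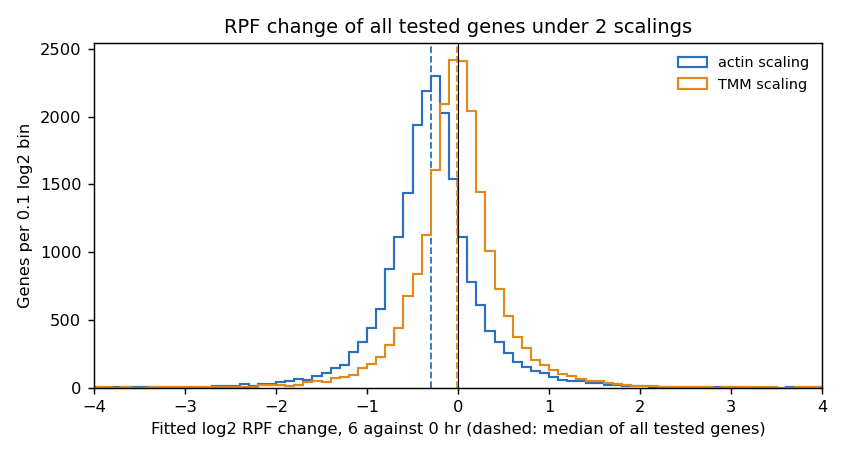
Number of tested genes per 0.1 log2 bin of the RPF change, 6 against 0 hr, with actin and with TMM scaling, and the medians as dashed lines at -0.29 and -0.01. The 2 distributions have a similar shape and are shifted against each other, and 15 genes lie outside the axis under at least 1 scaling.

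The 15 genes called higher in RPFs with TMM scaling had a median log2 change of 2.25 and a range of 1.63 to 3.98. They took up 0.154% and 0.142% of all RPF counts at 0 hr against 0.822% and 0.732% at 6 hr, beside 0.903% and 0.661% at 12 hr. BIP2 alone held 0.0611% and 0.0580% at 0 hr against 0.318% and 0.266% at 6 hr. The called gene that may share counts with BIP2 had nearly as many. All 15 had both 6 hr libraries above both 0 hr libraries under either scaling, which a call made on these same libraries favours. Over all tested genes this share was 14.3% with TMM and 4.67% with actin scaling, as given above. Their 0 hr duplicates differed by a median of 0.24 and at most 0.58 on the log2 scale, beside a median of 0.378 over all tested genes. A call with TMM scaling favours genes whose duplicates agree, so this closeness is not separate evidence. The fewest counts of these genes in 6 hr replicate 1 were 72. Of the 15 genes, 7 were also called with actin scaling, among them BIP2 and ERDJ3a, and the other 8 had actin-scaled estimates of 1.37 to 2.01. The 6 genes called higher with actin scaling alone had 7 to 607 counts in 6 hr replicate 1, and for 3 of them the 6 hr duplicates differed more than 2-fold. With TMM scaling and 1 library left out, 6 to 14 genes were called higher, of which 6 to 11 were among the 15. The fewest calls came without 0 hr replicate 1. There were 7 calls when 0 hr replicate 2 was left out and 8 when 6 hr replicate 1 was. With actin scaling, 4 and 3 genes were called higher without 6 hr replicate 1 and replicate 2, and 4 when the 0 and 6 hr libraries were fitted alone.

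The gene called higher in RPFs with the smallest adjusted p under either scaling was Zm00001d021120, for which no product name was available in the sources used here. It had 155 and 250 RPF counts at 0 hr against 973 and 6213 at 6 hr, or 47.4 and 42.9 CPM at 0 hr against 584 and 828 at 6 hr. Its log2 change was 3.67 with actin scaling (SE 0.48, edgeR adjusted p = 1.3e-10), a 12.7-fold rise, and 3.98 with TMM scaling (SE 0.27, edgeR adjusted p = 9.9e-05). At 12 hr its level was 810 and 625 CPM, which lies within the spread of the 6 hr duplicates.

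Zm00001d044156, likewise without a product name, was a gene of lower level that rose. It had 33 and 42 RPF counts at 0 hr against 134 and 649 at 6 hr, or 10.1 and 7.20 CPM at 0 hr against 80.4 and 86.4 at 6 hr. The log2 change was 2.98 with actin scaling (SE 0.54, edgeR adjusted p = 4.3e-05) and 3.30 with TMM scaling (SE 0.28, edgeR adjusted p = 0.00043). With actin scaling it lost its call without 6 hr replicate 2, where the edgeR adjusted p was 0.0801 at a log2 change of 2.86.

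The 42 genes called lower in RPFs with actin scaling had 0 hr duplicates that lay far apart. Their median level was 83.3 CPM in 0 hr replicate 1 and 12.5 in 0 hr replicate 2, against 6.60 and 7.92 in the 6 hr libraries. All 42 were highest in 0 hr replicate 1 among the 4 libraries with actin scaling, as were 16110 of the 20414 tested genes, and 41 were with TMM scaling, against 5634 of the tested genes. In 37 of the 42, 0 hr replicate 1 lay more than 2-fold above 0 hr replicate 2 with TMM scaling, which was so in 1590 of the 20414 tested genes. The median gap between the 0 hr duplicates was 2.27 on the log2 scale for these genes and 0.378 for all tested genes. Both 6 hr libraries lay below both 0 hr libraries in 30 of the 42 genes with actin scaling and in 31 with TMM scaling, beside the 14.5% and 15.6% of all tested genes given above.

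Without 0 hr replicate 1, no gene was called lower with actin scaling, by edgeR's test (96 at an unadjusted p under 0.05). The median log2 change of the 42 genes was then -0.73, against -2.80 with all libraries, and 31 of the 42 were below 0. Without 0 hr replicate 2, 655 genes were called lower with actin scaling and 21 with TMM scaling, 15 of the latter among the 42. With all libraries and TMM scaling the median change of the 42 was -2.20, all 42 were below 0 and 0 were called. With actin scaling, the robust estimate of the spread called 31 genes lower, the 0 and 6 hr libraries alone 19, and alpha tubulin 3 in place of actin 22, all of them among the 42. Limma's voom test called 12 genes lower, 11 of them among the 42. DESeq2 called 2 with actin factors and 9 with its own, of which 1 and 5 were among the 42. Without the 6 hr libraries in turn, 6 genes were called lower without replicate 1 and 10 without replicate 2.

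The RNAseq library of the same 0 hr lysate stood apart in the same genes. Of the 42, 41 had their highest RNA level with TMM scaling in 0 hr replicate 1, against 5650 of the 20414 genes, and in 36 this library lay more than 2-fold above 0 hr replicate 2, against 1588 of the 20414 genes. The part of the first 0 hr root sample in the fall of these RPFs was not tested further. The share of RPF counts held by the 42 genes was 0.865% and 0.332% at 0 hr against 0.152% and 0.180% at 6 hr, and in the 12 hr libraries it was 0.149% and 0.297%.

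Zm00001d012764 had 289 and 18 RPF counts at 0 hr against 0 and 4 at 6 hr, or 88.3 and 3.09 CPM at 0 hr against 0 and 0.533 at 6 hr. Nearly all of its RPFs thus came from 1 of the 4 libraries. Its log2 change was -7.29 with actin scaling (SE 0.82, edgeR adjusted p = 4.5e-15), but -6.63 with TMM scaling (SE 1.47, edgeR adjusted p = 0.273), and -2.67 with actin scaling without 0 hr replicate 1 (edgeR adjusted p = 1). Its RNA counts followed the same pattern, with 151 and 14 at 0 hr against 7 and 3 at 6 hr.

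Zm00001d007285 had 889 and 27 RPF counts at 0 hr against 3 and 28 at 6 hr, or 272 and 4.63 CPM at 0 hr against 1.80 and 3.73 at 6 hr. The second 0 hr library was close to the 6 hr libraries. The log2 change was -6.08 with actin scaling (SE 0.62, edgeR adjusted p = 1.1e-18), -5.37 with TMM scaling (SE 1.30, edgeR adjusted p = 0.398) and -0.34 with actin scaling without 0 hr replicate 1 (edgeR adjusted p = 1). At 12 hr its level was 49.7 and 50.2 CPM, between the 0 hr duplicates. With actin scaling edgeR estimated an infinite prior degrees of freedom, so that the gap between duplicates of a gene had little weight in its p. With TMM scaling the estimate was 9.04. With a robust estimate of the spread and actin scaling these were among the 11 of the 42 genes that lost their call (edgeR adjusted p = 0.999 for both), and 31 kept it.

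**Figure D4:**
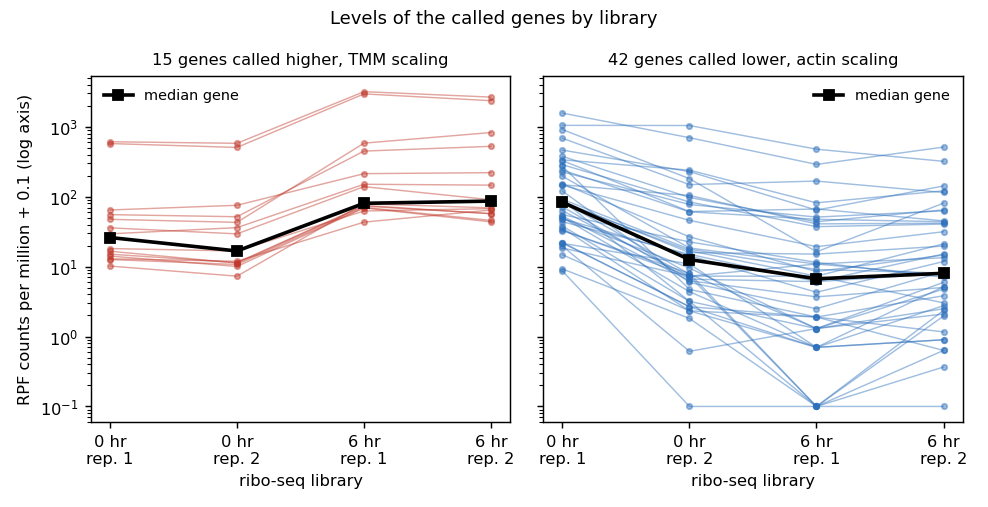
RPF CPM plus 0.1 (log axis) of each gene called higher with TMM scaling (left, 15 genes) and called lower with actin scaling (right, 42 genes), in the 4 libraries, with the median gene in black. The genes called higher have both 6 hr libraries above both 0 hr libraries, whereas in those called lower the median falls from 83.3 to 12.5 between the 0 hr duplicates.

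The RPF rises were set beside the RNA of the same lysates to ask whether ribosomes followed the transcripts. In RNA, 21 genes were called higher with actin scaling (0.0885% of 23721 tested) and 1 was called lower (0.00422%), and with TMM scaling 27 were called higher (0.114%) and 7 lower (0.0295%). All 15 genes called higher in RPFs with TMM scaling had an RNA change above 0 with TMM scaling, as did 10246 of the 20055 genes tested in both, with a median of 2.33, and 13 of them were called higher in RNA with TMM scaling and 11 with actin scaling. All 42 genes called lower in RPFs with actin scaling had an RNA change below 0 with actin scaling, as did 8630 of the 20055 genes, and 1 of them was called in RNA with actin scaling and 2 with TMM scaling.

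BIP2 RNA was at 348 and 504 CPM at 0 hr and reached 2337 and 2128 by 6 hr, a log2 change of 2.45 with actin scaling (SE 0.26, edgeR adjusted p = 0.00057) and of 2.37 with TMM scaling (SE 0.26, edgeR adjusted p = 0.0045). ERDJ3a RNA was at 49.0 and 30.1 CPM at 0 hr and reached 383 and 359 by 6 hr, with log2 changes of 3.22 and 3.26 (edgeR adjusted p = 0.0015 and 0.0013). PDI-2 RNA was at 32.7 and 51.8 CPM at 0 hr and reached 203 and 195 by 6 hr, with log2 changes of 2.30 and 2.18 (edgeR adjusted p = 0.0036 and 0.0058). Derlin 1 RNA was at 45.1 and 26.9 CPM at 0 hr and reached 144 and 134 by 6 hr. Its log2 change of 1.98 with TMM scaling passed the test (edgeR adjusted p = 0.012) and that of 1.94 with actin scaling did not (edgeR adjusted p = 0.104). In each of the 4 genes the 6 hr RNA libraries lay above the 0 hr ones and were closer together than the 0 hr duplicates on a log scale.

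Translation efficiency, the RPF level relative to the RNA level, was tested in 1 edgeR model of all 12 libraries over 20055 genes. No gene passed the test with actin scaling (smallest edgeR adjusted p = 0.130) or with TMM scaling (0.725). At an unadjusted p under 0.05, which some of the 20055 genes meet without any change, 51 were higher and 1460 lower with actin scaling. With TMM scaling 262 were higher and 418 lower. DESeq2 called 0 genes higher, and 0 lower with its own factors or 1 lower with actin factors. The median log2 change was -0.32 with actin and -0.03 with TMM scaling. TMM scaling sets the bulk of genes near 0 within each library type, so it cannot show a shift of all genes. With alpha tubulin 3 scaling the estimates were -0.34 for BIP2, -0.32 for ERDJ3a, -0.84 for PDI-2 and -0.85 for Derlin 1. The source of the downward shift was not tested.

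For PDI-2 the ratio of RPF to RNA CPM was 1.97 and 1.45 in the 0 hr lysates and 1.05 and 1.13 in the 6 hr lysates, without overlap. Its log2 change in translation efficiency was -0.87 with actin scaling (SE 0.30, unadjusted p = 0.00902, edgeR adjusted p = 0.651) and -0.58 with TMM scaling (SE 0.24, unadjusted p = 0.0268, edgeR adjusted p = 0.999). For Derlin 1 the ratio was 2.02 and 5.19 at 0 hr against 1.82 and 2.52 at 6 hr, so the time points overlapped. Its estimate was -0.91 with actin scaling (SE 0.33, unadjusted p = 0.0127, edgeR adjusted p = 0.651). With TMM scaling it was -0.63 (SE 0.32, unadjusted p = 0.0575, edgeR adjusted p = 0.999). The ratio of BIP2 was 1.76 and 1.15 at 0 hr against 1.36 and 1.25 at 6 hr, and that of ERDJ3a was 1.13 and 1.72 at 0 hr against 1.17 and 1.46 at 6 hr. In both genes the 6 hr ratios lay between those of 0 hr. The estimates were -0.40 and -0.10 for BIP2 (actin, then TMM scaling) and -0.37 and -0.09 for ERDJ3a, with SEs of 0.21 to 0.32. All 4 UPR genes had an estimate below 0 under both scalings, as did 15344 of the 20055 genes with actin and 10646 with TMM scaling. Without the first lysate of 0 hr that of BIP2 with actin scaling was 0.04.

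Across genes, larger RNA changes went with larger RPF changes. Over the 20055 genes the slope of the log2 RPF change on the log2 RNA change was 0.379 with actin scaling (r = 0.403) and 0.359 with TMM scaling (r = 0.392). Over the 3084 genes that reached 100 counts in each of the 0 and 6 hr libraries the slope was 0.672 (r = 0.714) and 0.646 (r = 0.698). The slope was thus steeper among well-counted genes. The points share lysates and 0 hr libraries and are not independent replicates, so this is given as a description. Computed within a replicate number with TMM scaling, the slope over the 3084 genes was 0.539 and 0.586, and with the RNA of the other replicate it was 0.303 and 0.185.

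**Figure D5:**
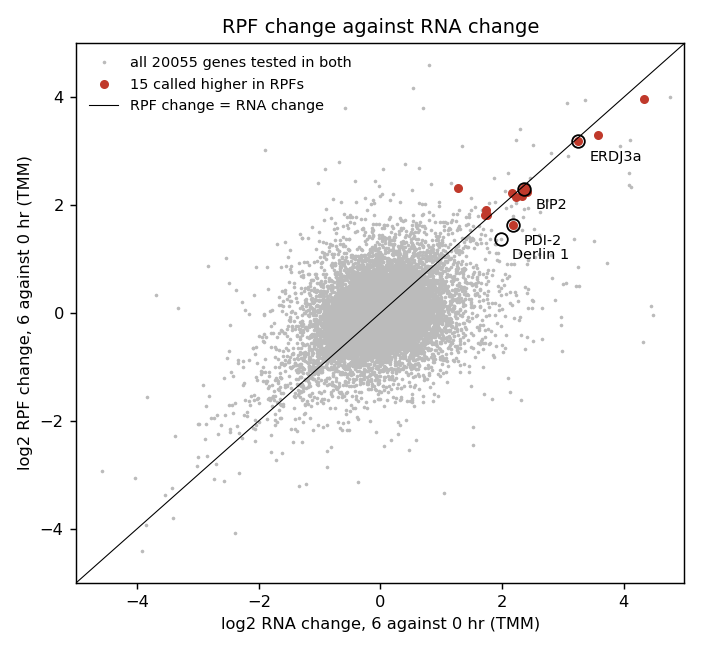
Log2 RPF change against log2 RNA change, 6 against 0 hr, both with TMM scaling, for 20055 genes, with the 15 genes called higher in RPFs in red and the 4 UPR genes circled; 11 genes lie outside the axes. BIP2 and ERDJ3a lie close to the line of equal change, at RPF changes of 2.30 and 3.20, and PDI-2 and Derlin 1 lie below it at 1.63 and 1.38.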

How the data were processed

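Per the submitters' processing notes and the methods, reads were trimmed with cutadapt 1.16, reads of noncoding RNA were removed, and the remainder was mapped with Bowtie 1.2 to coding sequences of B73 RefGen_v4. The authors deposited raw counts per gene without normalization, for 39498 genes. Libraries of 0, 6 and 12 hr were fitted together with time point as the factor in edgeR 4.0.16 (glmQLFit, glmQLFTest, R 4.3.3). Library sizes were set by actin counts, as the study's methods state, with TMM and total counts beside it. Filtering used filterByExpr on library totals. Fitted changes use a prior count of 0.125 and within-replicate values a pseudocount of 0.5. A standard error is the change divided by the square root of F. Translation efficiency was tested as the term for a time effect specific to RPFs, with lysate in the model. Alternatives included DESeq2 1.42.0 and limma 3.58.1. The tests were checked on simulated counts, in which actin was given no noise and genes of low count were left out. That check thus does not cover noise in the scaling gene or genes with few counts.

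The genes named are those to which the paper gives a complete identifier, and then the genes with the largest change among those called that had a mean of at least 50 counts and no overlap between time points under both scalings. None of the identifiers matched the RefSeq gene table, so at most 2 identifiers per direction are printed. Lists by product name and markers of root could thus not be applied, and the tissue label was not checked against markers. The members and lists were chosen with earlier results of these data known. P-values rest on the spread between 2 biological replicates per time point, estimated over the 0, 6 and 12 hr libraries and partly shared between genes. For RPFs with actin scaling the prior degrees of freedom were infinite, so those p-values rest on a spread shared over genes.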

Additional observations from a re-analysis of the deposited data

How the results depend on the processing

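The directions of the 4 UPR genes in RPFs and RNA, and of the 4 other named genes in RPFs, held under each alternative that could be fitted to them. The 4 other genes were picked for time points that did not overlap under both scalings, so their direction could hardly turn. Their size did move: Zm00001d007285 went from -6.08 with actin scaling to -0.34 without 0 hr replicate 1. Where a library was left out, its lone duplicate was assumed to vary like the other time points. Many tested genes had few counts in 6 hr replicate 1. With actin scaling, the 42 genes called lower were highest in 0 hr replicate 1 among the libraries of 0 and 6 hr. Counts are given as higher and lower. For RPFs with actin scaling (13 and 42), TMM scaling gave 15 and 0, total counts 14 and 0, alpha tubulin 3 scaling 8 and 22, at least 10 counts in every library 7 and 22, the 0 and 6 hr libraries alone 4 and 19, limma voom 10 and 12, DESeq2 54 and 9 with its own factors and 7 and 2 with actin factors, and leaving out 1 library 3 to 16 and 0 to 655. For RPFs with TMM scaling (15 and 0), the 0 and 6 hr libraries alone, chosen after seeing the data, gave 23 and 1, and leaving out 1 library gave 6 to 14 and 0 to 21, with a median change of -0.055 to 0.018. With actin scaling that median was -0.67 to 0.20. For RNA with actin scaling (21 and 1), TMM scaling gave 27 and 7, total counts 31 and 8, alpha tubulin 3 scaling 26 and 3, no filter 64 and 86, the 0 and 6 hr libraries alone 10 and 0, thinning 24 and 8, DESeq2 65 and 74 with its own factors and 41 and 13 with actin factors, and leaving out 1 library 16 to 179 and 4 to 372. For translation efficiency (0 and 0), no filter and DESeq2 with actin factors each gave 0 and 1. The cause of these differences was not tested.

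The libraries share only a replicate number, and the deviations of 0 and 6 hr RPFs by number correlated at 0.176 across genes. With a replicate block, RPFs gave 7 and 17 calls with actin and 24 and 1 with TMM scaling, RNA gave 10 and 0, and translation efficiency with the block in place of the lysate gave 0 and 0. The differences of RNA and RPFs between duplicates of one time point correlated at 0.325 at 0 hr and 0.0441 at 6 hr.

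Estimates that passed no test turned sign as follows. PAB2 in RPFs was at 0.069 with TMM scaling, 0.064 with total counts and 0.082 with DESeq2's own factors, and ranged from -0.75 to 0.41 when 1 library was left out, or from -0.057 to 0.22 with TMM scaling. Alpha tubulin 3 ranged from -0.28 to 0.50 when 1 library was left out, and BIP2 translation efficiency from -0.85 to 0.040 when 1 lysate was.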

Other observations

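The 174 identifiers of the older GRMZM format, 76 of which were tested, made up 0.656% and 0.605% of RPF counts in replicate 1 at 0 and 6 hr and 0.334% and 0.321% in replicate 2, and 0.536% and 0.381% at 12 hr in replicates 1 and 2. None of the 76 was called by edgeR under actin or TMM scaling. Of the tested genes, 2 had no RPF count in either 6 hr library, 1 of which had at least 10 counts in both 0 hr libraries, and 0 had no count in either 0 hr library.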
